A study of Canis lupus familiaris with 29 samples.

Results

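Cells sense oxygen through the hypoxia-inducible factors (HIFs), transcription factors made of an oxygen-sensitive alpha subunit and the constant partner ARNT. When oxygen is present, the prolyl hydroxylases EGLN1, EGLN2 and EGLN3 mark the alpha subunits for binding by the VHL protein and for degradation, so much of the control acts on the protein and not on the transcript. Pheochromocytomas and paragangliomas (PPGLs), tumors of the catecholamine-producing chromaffin cells of the adrenal medulla and of related cells outside it, can carry faults of this pathway in people, among them faults of EPAS1, VHL and the succinate dehydrogenase genes.

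Described here are 10 genes of the pathway, chosen by name: the alpha subunits EPAS1 (HIF-2 alpha), HIF1A and HIF3A, their partner ARNT, the hydroxylases EGLN1, EGLN2 and EGLN3, and the HIF targets CA9, ADM and BNIP3. All 10 were found among the 30951 genes of the count table, and all 10 passed the low-count filter in every comparison. RNA was sequenced from 19 PPGLs of client-owned dogs and from normal adrenal medullas (NAMs) of 10 healthy dogs, each sample from a separate dog; the labels give no age or genotype. Of the tumors, 7 form PPGL group 1 and 12 form PPGL group 2, a split the authors drew from a principal component plot of these same samples, so p-values between the groups describe that split. The authors left out 2 further tumors as outliers. NAMs were snap-frozen and tumors were snap-frozen or kept in RNAlater, so tissue, origin of the dogs and storage cannot be told apart.

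Total counts per sample were 19258054 to 35918182 in NAMs and 18208718 to 31919833 in PPGLs, with a lower mean in PPGLs (two-sided permutation test, p = 0.00527). Levels are given as CPM, counts scaled to a common library size with TMM factors, and levels between genes as RPKM, which also divides by exonic length. A count of 3, the limit that a count of 0 allows for counting error only, corresponded on this scale to 0.0779 to 0.164 CPM among the NAMs and 0.0895 to 0.175 CPM among the tumors. A gene was called at an FDR-adjusted p below 0.05 against NAMs and below 0.1 between the PPGL groups.

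The samples were first compared on markers of the cells they could hold. Adrenal cortex genes were abundant in the NAMs, where the 9 markers found summed to 13089.8 to 63916 CPM and were led by CYP17A1, against 35.2 to 1149 CPM in PPGL group 1 and 218 to 31928 CPM in PPGL group 2. Of these 9 markers, 8 (88.9%) were lower and 0 higher in PPGLs than in NAMs by edgeR, where 15.2% of all genes were lower. In group 1 against group 2, 6 of 7 (85.7%) were lower, where 2.95% of all genes were, with MC2R and MRAP left out after seeing the data because most group 1 tumors held 3 counts of them or fewer. Fewer cells of a type and less RNA per cell cannot be told apart in these bulk samples.

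Of the 11 chromaffin markers found, PHOX2A and SYP were higher and PNMT was lower in PPGLs by edgeR, and 8 were not called. At an unadjusted p below 0.05 and by DESeq2, 3 were higher and 2 lower, by the Mann-Whitney U-test 2 and 2, and without the 4 tumors described next 4 and 2. The edgeR shares were 18.2% and 9.09%, beside 22.3% and 15.2% of all genes. CHGB was the most abundant chromaffin marker in each group, and the 11 markers summed to 16394 to 93135 CPM in NAMs, 8169.6 to 118554 CPM in group 1 and 19079.5 to 99076.5 CPM in group 2. Some tumors stood apart from the rest. PPGL group 1 replicate 3 had 10.8 CPM of TH and 0.285 CPM of DDC, and replicate 5 of that group had 2.15 CPM of TH and 0.358 CPM of DDC, enzymes of catecholamine synthesis. TH was also low in group 2 replicate 7, at 32.3 CPM, but DDC was not, at 190 CPM, and the remaining tumors had 859 CPM of TH or more. PPGL group 1 replicate 7 had 27.1 CPM of CHGB, a granule protein gene at 5688 CPM or more in every NAM. PPGL group 2 replicate 11 had the highest fibroblast score, 10.48 as mean log2 CPM against 8.07 or less in the other tumors. Fits without group 1 replicates 3, 5 and 7 and group 2 replicate 11, 4 tumors chosen after seeing the data, are given below for each of the 10 genes whose call changed and for some of the list genes.

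The first comparison asks how the tumors differ from the normal medulla. EPAS1 was 2.21-fold, CA9 2.57-fold and ADM 2.29-fold higher in PPGLs than in NAMs, and EGLN2 was 0.724 times as high. HIF1A lay below every NAM in most tumors. Of the 10 genes, 3 were called higher and 1 lower in PPGLs, where 22.3% of all 14766 genes tested were called higher and 15.2% lower. The median log2 FC of the 10 genes was -0.07, and that of all genes tested was 0.13.

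EPAS1 encodes the alpha subunit of HIF-2 and is abundant in chromaffin and endothelial cells. Its level was 177 to 520 CPM across NAMs (median 328), 151 to 1606 CPM in PPGL group 1 (median 634) and 322 to 1439 CPM in PPGL group 2 (median 792). Of the 19 tumors, 13 lay above the highest NAM, and 1 tumor, group 1 replicate 7, lay below the lowest NAM. EPAS1 rose by a log2 FC of 1.14 (SE 0.28, FDR-adjusted p = 0.00180, 2.21-fold). Group 1 replicate 5, one of the tumors with little TH, had the highest EPAS1 of all samples.

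Endothelial markers were examined beside EPAS1. Of the 12 endothelial markers, 0 were higher and 4 (33.3%) were lower in PPGLs by edgeR, led by TEK, EMCN and TIE1, beside 22.3% and 15.2% of all genes. At an unadjusted p below 0.05, by DESeq2 and in the fit without the 4 tumors, 6 were lower, and by the Mann-Whitney U-test 5, with 0 higher in each. Their sum was 548 to 1153 CPM in the medullas against 226 to 1135 CPM in the tumors, with VWF the most abundant in NAMs and PECAM1 in PPGLs. With the endothelial score in the fit, the log2 FC of EPAS1 was 1.17 (FDR-adjusted p = 0.0042), and with the cortical score it was 1.16 (FDR-adjusted p = 0.0251).

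HIF1A encodes the more widely expressed alpha subunit of HIF-1. HIF1A stood at 206 to 304 CPM in NAMs (median 269), 97.3 to 176 CPM in group 1 (median 146) and 124 to 708 CPM in group 2 (median 165). All 7 tumors of group 1 and 9 of 12 tumors of group 2 lay below the lowest NAM, and 1 tumor, group 2 replicate 11, lay above the highest. Over all PPGLs the edgeR estimate of log2 FC was -0.43 (SE 0.22, FDR-adjusted p = 0.124). Without group 2 replicate 11 it was -0.66 (FDR-adjusted p = 0.000134), and without the 4 tumors that stood apart it was -0.64 (FDR-adjusted p = 0.000394). The Mann-Whitney U-test, which reads ranks only, called HIF1A lower with all tumors included (FDR-adjusted p = 0.00110). With the cortical score in the fit the log2 FC was -0.16 (FDR-adjusted p = 0.759).

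HIF3A, whose products can restrain the other alpha subunits, was scarce, at 4.63 to 24.2 CPM in NAMs, 5.59 to 35.0 CPM in group 1 and 0.371 to 22.9 CPM in group 2. The groups overlapped throughout, with log2 FC at -0.06 (SE 0.40, FDR-adjusted p = 0.920). Its lowest value belonged to group 2 replicate 11, the tumor with the highest HIF1A.

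Per length, EPAS1 was the leading alpha gene in every group. Its share of the summed RPKM of the 3 alpha genes was 61.2% ± 8.29 in NAMs (SD, n = 10) and 80.1% ± 11.4 in PPGLs (SD, n = 19). The share of HIF1A was 36.2% ± 8.92 in NAMs and 17.9% ± 10.8 in PPGLs. HIF3A made up 2.59% ± 1.17 in NAMs and 1.95% ± 1.71 in PPGLs.

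ARNT, the partner of all 3 alpha subunits, was at 33.7 to 70.8 CPM in NAMs (median 51.6), 19.3 to 81.8 CPM in group 1 (median 43.5) and 24.4 to 69.1 CPM in group 2 (median 37.5). Against NAMs, ARNT had a log2 FC of -0.38 (SE 0.19, FDR-adjusted p = 0.127), with 8 tumors below the lowest NAM. The highest ARNT of all samples was that of group 1 replicate 7, and without that tumor the log2 FC was -0.46 (FDR-adjusted p = 0.0427). Without the 4 tumors that stood apart it was -0.50 (FDR-adjusted p = 0.0388). By the Mann-Whitney U-test ARNT was called lower over all tumors (FDR-adjusted p = 0.0464) and in group 2 (0.0449), but not in group 1 (0.290).

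**Figure D1:**
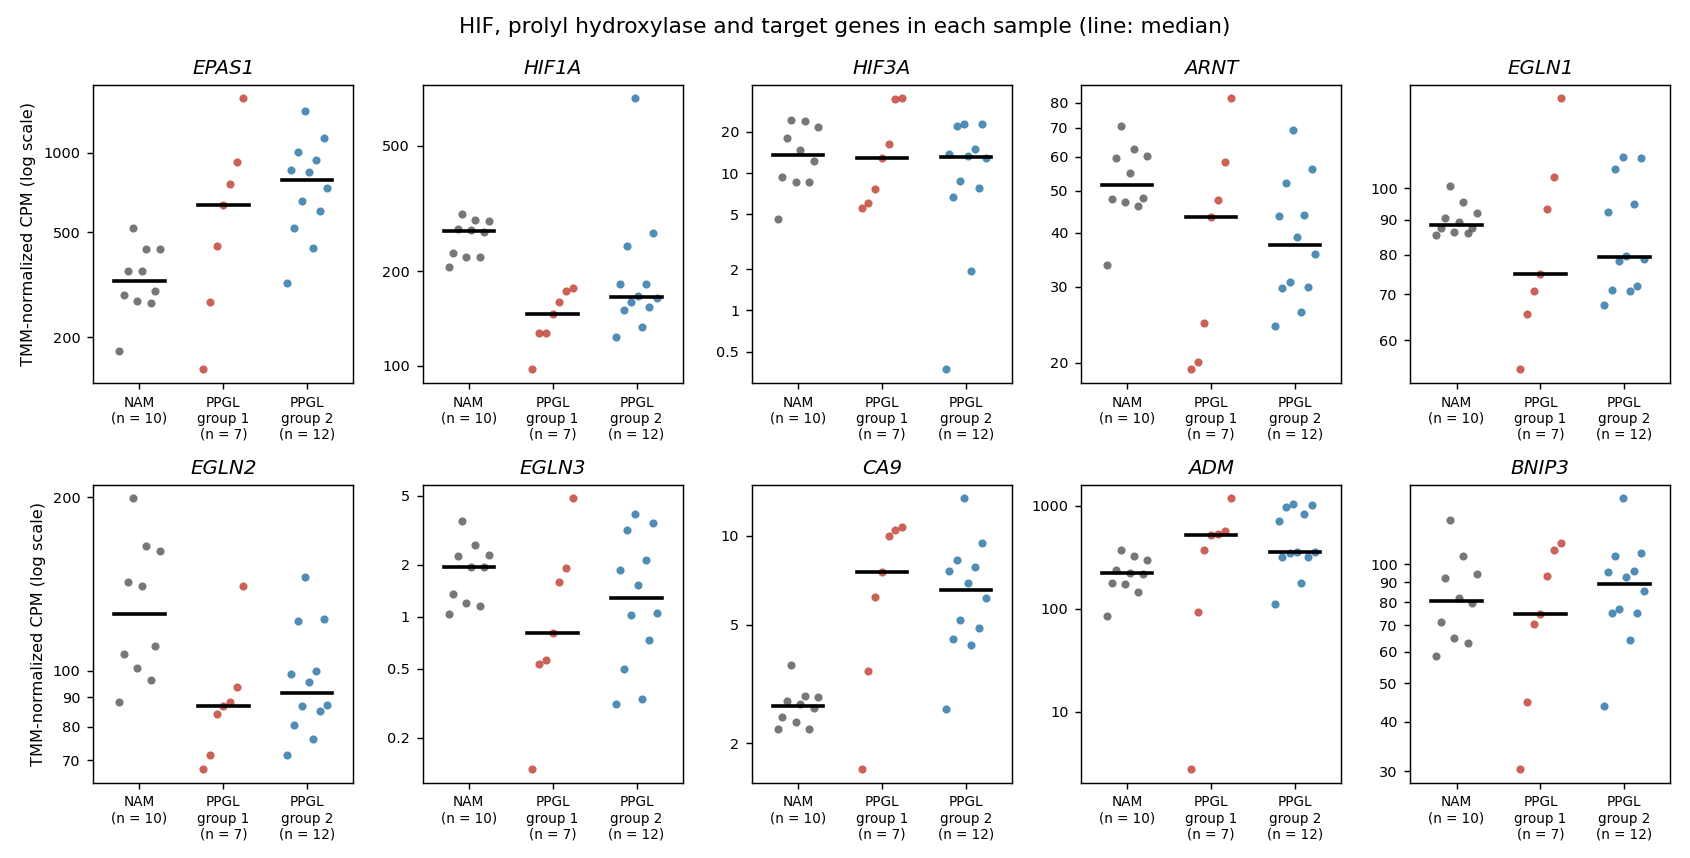
TMM-normalized CPM on a log axis for each of the 10 genes in each sample, 1 point per dog, with the 10 NAMs, the 7 tumors of PPGL group 1 and the 12 of group 2 side by side and a line at each group's median. Most tumors lie above the NAMs for EPAS1 and CA9 and below them for HIF1A, and single tumors lie far off for ADM (2.75 CPM), HIF1A (708 CPM) and HIF3A (0.371 CPM).

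Among the prolyl hydroxylases, EGLN2 fell and EGLN1 and EGLN3 were not called. EGLN2 was at 88.2 to 199 CPM in NAMs (median 125), 67.5 to 140.3 CPM in group 1 (median 87.0) and 71.5 to 146 CPM in group 2 (median 91.5). It lay below the lowest NAM in 10 of 19 tumors and above the highest in 0, with a log2 FC of -0.47 (SE 0.14, FDR-adjusted p = 0.00796). With the cortical score in the fit the log2 FC was -0.22 (FDR-adjusted p = 0.433), and with the endothelial score it was -0.38 (FDR-adjusted p = 0.0504).

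EGLN1, the main hydroxylase of HIF alpha subunits in most tissues, varied little among NAMs, at 85.4 to 100.7 CPM. It spread over 54.4 to 135 CPM in the tumors, with 11 below the lowest NAM and 5 above the highest, and a log2 FC of -0.07 (SE 0.11, FDR-adjusted p = 0.661). The SD of its log2 CPM was 0.08 in NAMs and 0.33 in PPGLs.

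EGLN3, a hydroxylase that is itself a HIF target in many cells, was near the bottom of the range, at 1.04 to 3.55 CPM in NAMs (median 1.94), 0.131 to 4.83 CPM in group 1 (median 0.809) and 0.312 to 3.90 CPM in group 2 (median 1.28). In group 1 replicate 1 it rested on 3 counts. EGLN3 had a log2 FC of -0.27 (SE 0.42, FDR-adjusted p = 0.646), with 9 tumors below the lowest NAM and 2 above the highest. Per length, EGLN1 and EGLN2 made up 49.7% and 48.7% of the 3 hydroxylase genes in PPGLs, and EGLN3 made up 1.58%.

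CA9 encodes carbonic anhydrase IX, a cell surface enzyme that is widely used as a marker of HIF-1 activity. It was low in NAMs, at 2.23 to 3.67 CPM (median 2.67), and higher in group 1, at 1.63 to 10.7 CPM (median 7.56), and group 2, at 2.60 to 13.4 CPM (median 6.54). Of the 19 tumors, 16 lay above the highest NAM and 1, group 1 replicate 6, below the lowest. CA9 rose by a log2 FC of 1.36 (SE 0.25, FDR-adjusted p = 0.000149, 2.57-fold). It remained a low transcript: its mean in PPGLs was 4.47 RPKM, above 29.03% of the genes that passed the filter. With the cortical score in the fit the log2 FC was 1.03 (FDR-adjusted p = 0.0280).

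ADM encodes adrenomedullin, a vasodilator peptide first isolated from pheochromocytoma. Its level was 84.7 to 369.7 CPM in NAMs (median 221), 2.75 to 1184 CPM in group 1 (median 521) and 112 to 1035 CPM in group 2 (median 353). Of the 19 tumors, 10 lay above the highest NAM and 1, group 1 replicate 7, far below the lowest. ADM rose by a log2 FC of 1.20 (SE 0.46, FDR-adjusted p = 0.0417). The call was lost in 13 of 29 fits that each left out 1 sample, those without NAM replicates 1, 2, 3, 6, 7, 8 or 9, group 1 replicate 5 or group 2 replicates 2, 4, 5, 7 or 12, with FDR-adjusted p of 0.0514 to 0.0770. It was also lost with the cortical score (1.12, FDR-adjusted p = 0.197) or the endothelial score (1.19, FDR-adjusted p = 0.0771) in the fit. Without the 4 tumors that stood apart the log2 FC was 1.23 (FDR-adjusted p = 0.00537).

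BNIP3, a HIF target that acts in mitophagy, was at 58.6 to 129 CPM in NAMs (median 80.9), 30.4 to 113 CPM in group 1 (median 74.7) and 43.8 to 147 CPM in group 2 (median 89.2). The groups overlapped, with log2 FC at 0.00 (SE 0.18, FDR-adjusted p = 0.998).

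By mean RPKM (± SD, n = 10) in NAMs, the highest levels were those of ADM (131 ± 50.5) and EPAS1 (116 ± 34.1). BNIP3 (77.7 ± 20.1), HIF1A (65.3 ± 8.79), EGLN2 (64.0 ± 17.7) and EGLN1 (49.8 ± 2.70) came next, before ARNT (20.1 ± 4.01) and HIF3A (4.92 ± 2.37). EGLN3 (1.78 ± 0.728) and CA9 (1.73 ± 0.275) were lowest. In this order, neighbors from BNIP3 to EGLN1 differed by less than the larger of their SDs, as did ADM and EPAS1, and EGLN3 and CA9. In PPGLs (± SD, n = 19), ADM (301 ± 205) and EPAS1 (257 ± 129) had again the highest mean RPKM, and EGLN3 (1.48 ± 1.25) had the lowest, below CA9 (4.47 ± 1.97).

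A single tumor, group 1 replicate 7, held the extreme value among the 19 PPGLs for 5 of the 10 genes. It was highest for ARNT and EGLN3 and lowest for EPAS1, ADM and BNIP3. Group 1 replicate 1 was lowest for HIF1A, ARNT, EGLN2 and EGLN3.

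The next comparison asks how the tumor groups differ from each other. Between PPGL group 1 and group 2, 0 of the 10 genes were called higher and 0 lower by edgeR, where 3.97% of the 14666 genes tested were called higher and 2.95% lower. The count was also 0 in each direction at an unadjusted p below 0.05, by DESeq2 and by the Mann-Whitney U-test. The log2 FC of HIF1A was -0.61 (SE 0.30, FDR-adjusted p = 0.280), that of HIF3A was 0.45 (SE 0.54, FDR-adjusted p = 0.689), and the other genes lay between -0.21 and 0.08.

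Each PPGL group was also set against the same 10 NAMs, which both contrasts share. In group 1, 2 of the 10 genes were called higher and 2 lower, where 21.0% of the 15201 genes tested were called higher and 14.1% lower. In group 2, 2 were called higher and 1 lower, where 18.4% were called higher and 14.5% lower. EPAS1 had a log2 FC of 1.00 (SE 0.33, FDR-adjusted p = 0.0188) in group 1 and 1.21 (SE 0.30, FDR-adjusted p = 0.00259) in group 2. Without group 1 replicate 5, the group 1 value was 0.63 (FDR-adjusted p = 0.117), without the 4 tumors that stood apart it was 0.81 (0.0566), and with the sample number as a block it was 0.64 (0.211). The Mann-Whitney U-test called 0 genes of the 10 higher in group 1, with FDR-adjusted p at 0.257 for EPAS1 and 0.0603 for CA9, where edgeR at an unadjusted p below 0.05 and DESeq2 each gave 2.

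CA9 had a log2 FC of 1.41 (SE 0.30, FDR-adjusted p = 0.000640) in group 1 and 1.33 (SE 0.27, FDR-adjusted p = 0.000579) in group 2. HIF1A had a log2 FC of -0.84 (SE 0.26, FDR-adjusted p = 0.0140) in group 1 and -0.24 (SE 0.22, FDR-adjusted p = 0.435) in group 2. Without group 2 replicate 11 the latter was -0.56 (FDR-adjusted p = 0.00177), and without the 4 tumors it was also -0.56 (0.00185). With all tumors kept, HIF1A was called lower in group 2 by the Mann-Whitney U-test (FDR-adjusted p = 0.0160). The fit with the block also called HIF1A lower there (-0.57, FDR-adjusted p = 0.0124). Sample numbers 11 and 12 occur only in group 2, so that fit takes nothing on the contrast from replicates 11 and 12. In group 1 the endothelial score in the fit brought HIF1A to -0.59 (FDR-adjusted p = 0.0960). ARNT, not called in group 1 with all tumors, was at -0.80 (FDR-adjusted p = 0.0374) there without the 4 tumors. EGLN2 had a log2 FC of -0.54 (SE 0.18, FDR-adjusted p = 0.0183) in group 1 and -0.43 (SE 0.15, FDR-adjusted p = 0.0301) in group 2, where it was -0.39 (FDR-adjusted p = 0.0620) without NAM replicate 6, -0.39 (0.0594) without NAM replicate 8 and -0.34 (0.0796) without NAM replicate 9. In group 1 the EGLN2 call was lost without the 4 tumors (-0.46, FDR-adjusted p = 0.116), with the endothelial score (-0.45, 0.0775) and with the block (-0.45, 0.0811). In group 2 it was lost with the endothelial score (-0.36, FDR-adjusted p = 0.0939) and with the block (-0.42, 0.0575). ADM had a log2 FC of 1.05 (SE 0.55, FDR-adjusted p = 0.143) in group 1, or 1.29 (FDR-adjusted p = 0.0220) without group 1 replicate 7. In group 2 it was 1.27 (SE 0.50, FDR-adjusted p = 0.0506), and the FDR-adjusted p was 0.0457 without NAM replicate 10, 0.0345 without group 2 replicate 9, 0.0477 without replicate 10 and 0.0377 without replicate 11, and without the 4 tumors the value was 1.35 (0.00401). With all samples ADM was called in group 2 by DESeq2 (FDR-adjusted p = 0.0237), by the Mann-Whitney U-test (0.0382), with scaling by library size alone (0.0499) and with a filter of 1 CPM (0.0489). Whether a gene differed from NAMs more in either group is tested only by the direct comparison above. With the cortical score in the fit, 0 of the 10 genes were called by edgeR in either contrast. Over all genes, 16 were called higher and 4 lower in group 1, and 763 higher and 496 lower in group 2. The score was -0.81 to 3.93 in group 1 and 9.23 to 11.40 in NAMs, without overlap. The fit therefore cannot separate the score from the tissue in group 1. There the SE grew from 0.33 to 0.94 for EPAS1 and from 0.30 to 0.76 for CA9. In that fit CA9 was at -0.18 (FDR-adjusted p = 0.950) in group 1 and 0.74 (FDR-adjusted p = 0.182) in group 2, and EPAS1 at 0.10 (FDR-adjusted p = 0.978) and 0.92 (FDR-adjusted p = 0.148). HIF1A was there at -1.48 (FDR-adjusted p = 0.328) and EGLN2 at 0.40 (FDR-adjusted p = 0.732) in group 1, and EGLN2 at -0.08 (FDR-adjusted p = 0.839) in group 2.

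The other genes of the pathway are given by list. Of 12 other regulators of HIFs, 3 (25.0%) were higher and 0 lower in PPGLs by edgeR, beside 22.3% and 15.2% of all genes. At an unadjusted p below 0.05, 5 were higher, by DESeq2 3 and by the Mann-Whitney U-test 5, with 0 lower in each. CITED2, a competitor of HIFs for their coactivators, rose from a median of 22.5 CPM in NAMs to 36.5 in group 1 and 59.7 in group 2 (log2 FC 1.36, SE 0.25, FDR-adjusted p = 0.000124), with 14 of 19 tumors above every NAM. SIAH1, a ubiquitin ligase that acts on the hydroxylases, had a log2 FC of 0.75 (SE 0.20, FDR-adjusted p = 0.00367), and ELOC, a subunit of the VHL ligase, of 0.29 (SE 0.11, FDR-adjusted p = 0.0403). VHL itself had a log2 FC of 0.37 (SE 0.16, FDR-adjusted p = 0.0730) and is named after its value was seen.

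Of 15 HIF targets outside glycolysis, 5 (33.3%) were higher and 0 lower in PPGLs by edgeR, beside 22.3% and 15.2% of all genes. At an unadjusted p below 0.05, 6 were higher, by DESeq2 5 and by the Mann-Whitney U-test 2, with 0 lower in each. Without the 4 tumors that stood apart, 4 were higher and 1 lower. The median log2 FC of these 15 was 0.29, and that of all genes was 0.13. STC2, a secreted glycoprotein gene left out of these counts after seeing the data, was at 0 to 0.255 CPM in NAMs and up to 2.44 CPM in group 1 and 12.6 CPM in group 2, with 16 of 19 tumors above every NAM. Most NAMs held 3 counts of STC2 or fewer, so its fitted log2 FC depends on the prior count, and neither that nor its call is given. ANKRD37 had a log2 FC of 1.64 (SE 0.31, FDR-adjusted p = 0.000180), with 17 of 19 tumors above every NAM, and the repressor BHLHE40 of 1.40 (SE 0.48, FDR-adjusted p = 0.0204). In NAMs BHLHE40 was at 20.5 to 57.4 CPM. It reached 523 CPM in group 2 replicate 11 and 278 CPM in group 2 replicate 4, against 177 CPM or less in the other tumors. VEGFA, the angiogenic factor named here after its value was seen, was the most abundant of the list in each group, with a log2 FC of 0.39 (SE 0.32, FDR-adjusted p = 0.358).

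Of 11 HIF targets of glucose uptake and glycolysis, 2 (18.2%) were higher and 3 (27.3%) lower, beside 22.3% and 15.2% of all genes, with the same counts at an unadjusted p below 0.05, without the 4 tumors and by both other tests. SLC2A3, a glucose transporter, had a log2 FC of 1.95 (SE 0.51, FDR-adjusted p = 0.00373), and PFKP, a phosphofructokinase, of 1.38 (SE 0.25, FDR-adjusted p = 9.43e-05). In NAMs SLC2A3 was at 14.1 to 46.1 CPM. It reached 598 CPM in group 2 replicate 11, 427 CPM in group 2 replicate 4 and 196 CPM in group 1 replicate 5. The other tumors had 19.0 to 97.4 CPM. PFKFB4, which sets the level of a phosphofructokinase activator, spanned 23.0 to 55.7 CPM in NAMs against 6.73 to 18.9 CPM over the PPGLs, so that all 19 tumors lay under the lowest medulla (log2 FC -1.75, SE 0.16, FDR-adjusted p = 9.28e-09). PDK1, which closes pyruvate dehydrogenase, had a log2 FC of -0.99 (SE 0.24, FDR-adjusted p = 0.00169), and the enolase ENO1 of -0.47 (SE 0.15, FDR-adjusted p = 0.0156). Cortical markers were also lower in this comparison, and their part in these falls was not tested.

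Of 6 targets linked to HIF-2 that were tested, 4 (66.7%) were higher and 0 lower in PPGLs by edgeR, with a median log2 FC of 1.30. Over all genes the shares were 22.3% and 15.2% and the median was 0.13. At an unadjusted p below 0.05 and by DESeq2, 5 were higher and 1 lower, and by the Mann-Whitney U-test 4 were higher and 0 lower. Leaving out the 4 tumors gave 3 higher and 1 lower by edgeR. COX4I2, a cytochrome oxidase subunit gene, was at 29.3 to 76.4 CPM in NAMs, 27.0 to 682 CPM in group 1 and 129 to 566 CPM in group 2 (log2 FC 2.52, SE 0.38, FDR-adjusted p = 1.40e-05). Its lowest tumor was group 1 replicate 7, the tumor with the lowest EPAS1, and its highest was group 1 replicate 5, the tumor with the highest. The next tumors by EPAS1 did not follow this order. Group 2 replicate 1, with the second highest EPAS1, had 191 CPM of COX4I2. Group 1 replicate 4, with the second lowest, had 415 CPM. The relation of COX4I2 to EPAS1 over the tumors was not tested. LOXL2, a collagen crosslinking enzyme, had a log2 FC of 2.29 (SE 0.42, FDR-adjusted p = 0.000127), and NDUFA4L2 of 1.05 (SE 0.36, FDR-adjusted p = 0.0212).

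Fibroblast and pericyte markers were examined in the same comparison. Of 8 fibroblast markers, 5 (62.5%) were higher and 0 lower by edgeR, 6 and 0 at an unadjusted p below 0.05, 5 and 1 by DESeq2, and 2 and 1 by the Mann-Whitney U-test. The shares of all genes were 22.3% higher and 15.2% lower, here and for the pericyte list. The fibroblast markers summed to 658 to 1253 CPM in the medullas against 532 to 27269.6 CPM in the tumors. THY1 was the most abundant, at 67.3% of the mean sum in group 1 and 36.3% in group 2. It did not follow the other markers in every tumor. Group 1 replicate 6 had 6544 CPM of THY1 but 65.1 CPM of COL1A1 and 0.233 CPM of PDGFRA. How far THY1 reflects fibroblasts here was not tested. Of 8 pericyte and smooth muscle markers, 3 (37.5%) were higher and 0 lower by edgeR, 5 and 0 at an unadjusted p below 0.05, 3 and 0 by DESeq2, and 2 and 0 by the Mann-Whitney U-test. Their sum was 396 to 1683 CPM in the medullas against 356 to 5313 CPM in the tumors, led by RGS5. Fits that left out the 4 tumors gave 4 fibroblast markers higher and 1 lower, and 2 pericyte and smooth muscle markers higher and 0 lower. The part of these cells in the higher COX4I2, LOXL2 and NDUFA4L2 was not tested.

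Faults of some metabolic genes and of VHL can give a hypoxia-like state under normal oxygen, through loss of function or, for the isocitrate dehydrogenases, through a gained one. Of 9 such susceptibility genes, 0 were higher and 5 (55.6%) lower in PPGLs by edgeR, beside 22.3% and 15.2% of all genes. At an unadjusted p below 0.05, 1 was higher, and 0 were higher by DESeq2 and the Mann-Whitney U-test, with 5 lower in each. The list median was -0.45, against 0.13 over all genes. The isocitrate dehydrogenase IDH1 had a log2 FC of -1.03 (SE 0.23, FDR-adjusted p = 0.000954), the succinate dehydrogenase subunit SDHC of -0.84 (SE 0.14, FDR-adjusted p = 4.00e-05) and SDHA of -0.72 (SE 0.14, FDR-adjusted p = 0.000250). SDHA lay below every NAM in 15 of 19 tumors. The cortical markers were lower in the same comparison, and their part in these values was not tested.

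Against the NAMs, CITED2 was higher in group 1 (log2 FC 0.84) with VHL (0.52) and CUL2 (0.43), and in group 2 (1.59) with SIAH1 (0.84). In group 1, CITED2 (0.64, FDR-adjusted p = 0.124) and VHL (0.57, 0.0631) were not called without the 4 tumors. Among targets outside glycolysis, ANKRD37 (2.12) and P4HA2, a collagen hydroxylase (1.20), had the largest log2 FCs in group 1, and LOX, a collagen crosslinking enzyme (1.94), and BHLHE40 (1.83) in group 2, STC2 again left out. LOX reached 38.5 CPM in group 2 replicate 11 against 3.96 CPM or less in the other tumors of that group, and without the 4 tumors it was not called (0.73, FDR-adjusted p = 0.136). BHLHE40 (1.36) was still called in group 2 without them. PFKP was higher in group 1 (1.71) with PGK1, a glycolytic kinase (0.43), and in group 2 (1.12) with SLC2A3 (2.27). PFKFB4 was lower in both (-1.86 and -1.70), as was PDK1 (-1.34 and -0.83), and ENO1 was lower in group 2 (-0.57). By the Mann-Whitney U-test 1 glycolysis target was higher and 2 lower in group 1, where edgeR called 2 and 2.

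Of the HIF-2-linked targets, COX4I2 (2.63), LOXL2 (1.93) and the cell cycle gene CCND1 (1.20) were higher and the chemokine receptor CXCR4 (-2.32) was lower in group 1. By the Mann-Whitney U-test 2 of these targets were higher and 0 lower there, where edgeR called 3 and 1, so the CXCR4 call was lost. LOXL2 had a log2 FC of 2.46 and COX4I2 of 2.44 in group 2. Directly between the groups, 1 of 6 HIF-2-linked targets (16.7%) was lower in group 1 and 0 higher by edgeR, beside 2.95% and 3.97% of all genes. DESeq2 also gave 1 lower, but the Mann-Whitney U-test and edgeR without the 4 tumors gave 0. Among the susceptibility genes, VHL (0.52, SE 0.20, FDR-adjusted p = 0.0410) was higher and SDHC (-1.01), SDHA (-0.99) and FH (-0.69) were lower in group 1, and IDH1 (-1.25), SDHC (-0.76) and SDHA (-0.59) had the largest falls in group 2. In group 1, 0 of these genes were higher by the Mann-Whitney U-test, and 0 by edgeR without the 4 tumors.

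Across the 19 PPGLs, 14 pairs of these genes or of a gene and the endothelial score were compared as log2 CPM, and 0 passed an adjusted p of 0.05. EPAS1 and ADM had a Pearson r of 0.64 (permutation p = 0.00548, adjusted p = 0.0767) and a Spearman rho of 0.37 (permutation p = 0.118, adjusted p = 0.654). Without the 2 tumors farthest from the median of EPAS1, group 1 replicates 4 and 7, r was 0.39, and it was 0.69 within group 1 and 0.45 within group 2. CA9 and BNIP3 had an r of -0.45 (permutation p = 0.0544, adjusted p = 0.381) and a rho of -0.43 (permutation p = 0.0701, adjusted p = 0.654), with r at -0.23 without the 2 tumors farthest from the median of CA9, -0.55 within group 1 and -0.36 within group 2. The endothelial score and EPAS1 had an r of 0.04 (permutation p = 0.884, adjusted p = 0.884) and a rho of -0.08 (permutation p = 0.73, adjusted p = 0.865), with r at 0.08 without the 2 tumors farthest from the median of the score, 0.44 within group 1 and -0.71 within group 2.

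As a description over the same 19 tumors, the named genes with the highest Spearman rho to EPAS1 were AUTS2 (0.87), RAPGEF2 (0.83), CCDC6 (0.81), KDM4A (0.80) and INSR (0.79). For EGLN3 they were SOS1 (0.83), MTA3 (0.79), SLC19A1 (0.78), KCMF1 (0.76) and OSBPL11 (0.76). For CA9 they were TTC34 (0.81), GTF2H4 (0.78), TNNI3 (0.78), MPPED1 (0.78) and ACTL7A (0.76).

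In CanFam3.1, EPAS1 (ENSCAFG00000002627) lies on chromosome 10 from 48551410 to 48634844 and HIF1A (ENSCAFG00000015718) on chromosome 8 from 36614045 to 36656692. HIF3A (ENSCAFG00000045412) lies on chromosome 1 from 109479128 to 109504274 and ARNT (ENSCAFG00000012149) on chromosome 17 from 59941353 to 60010867. EGLN1 (ENSCAFG00000011772) lies on chromosome 4 from 8053837 to 8109325, EGLN2 (ENSCAFG00000005079) on chromosome 1 from 112992780 to 113000677 and EGLN3 (ENSCAFG00000013182) on chromosome 8 from 12875387 to 12901709. Of the targets, CA9 (ENSCAFG00000002077) lies on chromosome 11 from 52205668 to 52211267, ADM (ENSCAFG00000007539) on chromosome 21 from 33471623 to 33474495 and BNIP3 (ENSCAFG00000024645) on chromosome 28 from 40038643 to 40049797. ARNT and EGLN1 each overlap 1 other gene of the table, with a median count of 0 in both cases, and the other 8 overlap none.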

How the data were processed

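Stranded mRNA libraries of 19 PPGLs and 10 NAMs were read as single ends, aligned by the authors to CanFam3.1 with STAR, and deposited as raw counts per Ensembl gene over its exons, not normalized. The submitters' processing notes also name FastQC, Picard and HTSeq. The strand setting and the treatment of multi-mapping reads are not given in the sources used here.

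Counts were filtered with filterByExpr (minimum count 10, minimum total 15), scaled by TMM and tested by edgeR's quasi-likelihood F test with Benjamini-Hochberg adjustment over all genes tested. The contrast of PPGLs with NAMs used all 29 samples and that of the groups the 19 PPGLs, and each group was set against NAMs in a fit of 3 group means. Scores are means of log2 CPM (prior count 2) over a list's genes that passed the filter. Permutation tests were two-sided with 100000 resamples. The members and lists were chosen with earlier results of these data known. Named are the 10 members, up to 3 called genes with the largest log2 FC per list, direction and comparison, and the 5 genes most like EPAS1, EGLN3 and CA9; beyond the pathway lists only genes the text turns on are named, and a result that falls under the rule is not reported here. Other settings tried were scaling by library size alone or by DESeq2's size factors, DESeq2's Wald test, the Mann-Whitney U-test, no filter or 1 CPM, the sample number as a block, the cortical or endothelial score as a covariate, other group terms, each sample left out and, chosen after seeing the data, the 4 tumors that stand apart left out; relations were also computed with a prior count of 0.5. The steps were tested on simulated data. Fits ran in edgeR 4.0.16 with limma 3.58.1, and in DESeq2 1.42.0, under R 4.3.3. Correlations and plots used NumPy 2.4.6, SciPy 1.17.1 and matplotlib 3.10.9 under Python 3.11.15.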

Additional observations from a re-analysis of the deposited data

Results flagged for a closer look

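In PPGL group 1, ADM was at a log2 CPM of 1.504 (2.75 CPM) in replicate 7, a gap of 0.58 of the group's whole range from the next tumor. The same tumor had 27.1 CPM of CHGB and the lowest EPAS1 of the PPGLs (151 CPM). In NAMs, CA9 was at a log2 CPM of 1.91 (3.67 CPM) in replicate 8, a gap of 0.48 of the range, and this was also the NAM with the highest summed adrenal cortex markers (63916 CPM) and the lowest EPAS1 (177 CPM) and ADM (84.7 CPM). These are 2 of 20 groups of values examined, the 10 genes in NAMs and in group 1, and chance gives about 1 such value in 20 groups. Group 2, with 12 tumors, was not examined in this way, and its replicate 11 had 708 CPM of HIF1A against 265 CPM or less in the other tumors.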

How the results depend on the processing

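EPAS1 and CA9 kept their direction and call between PPGLs and NAMs in all 11 other settings and in all 29 fits that each left out 1 sample. EGLN2 kept its call in 9 of 11 and ADM in 6 of 11. EGLN3, CA9 and HIF3A had the lowest mean CPM of the members in each group, and how far depth limits each gene was not tested. Library size alone as scaling moved the median log2 FC of all genes by over 0.1 in 1 contrast, group 1 against NAMs, from 0.13 to 0.24. The sample number carried no visible pairing (mean r 0.0017 for 24 pairs of the same number and -0.0003 for 250 of different number). Numbers 11 and 12 occur only in group 2, and among the tumors alone numbers 8 to 12 do. Fits with the block take nothing on the contrast from such tumors. Where a value below differs from the report, the cause was not tested.

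Of the 10 genes, the number lower in PPGLs than in NAMs was 1, and it was 3 by the Mann-Whitney U-test, 2 with the replicate block, 0 with the cortical score, 0 with the endothelial score, 3 without the 4 tumors that stand apart (chosen after seeing the data) and 2 from 3 group means; at an unadjusted p below 0.05 edgeR gave 1, and DESeq2 gave 1. Over all genes, 1301 were higher and 1058 lower with the cortical score. BNIP3 changed sign to -0.0198 with DESeq2's size factors, -0.0199 with its Wald test, -0.0180 with no filter, -0.0703 with the block, -0.182 with the endothelial score and -0.0362 from 3 group means. HIF3A was at 0.00525 with library size and 0.107 without the 4 tumors, where EGLN1 was at 0.0131. HIF1A was called with the block (-0.65, FDR-adjusted p = 0.00216) and from 3 group means (-0.54, FDR-adjusted p = 0.0361), over a range of 0.000394 to 0.759 in 11 settings. The block fit takes nothing on this contrast from group 2 replicate 11, and the fit without that tumor gave HIF1A at -0.66. ADM lost its call without a filter (FDR-adjusted p = 0.0531), with the block (0.133), with the cortical (0.197) or endothelial score (0.0771) and from 3 group means (0.0508), over a range of 0.00537 to 0.197.

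Between the PPGL groups, genes called higher and lower were 916 and 877 by DESeq2, 160 and 226 by the Mann-Whitney U-test, 10 and 37 with the block, 0 and 0 with the cortical score by edgeR, 215 and 234 without the 4 tumors, and 1405 and 1162 from the fit on 29 samples. The main values were 582 and 433. The cortical score was -0.81 to 3.93 in group 1 and 3.20 to 10.24 in group 2, so the fit with it separates score and group poorly. EGLN1 changed sign to 0.0192 with library size, 0.16 with the cortical score and 0.19 without the 4 tumors. With the block HIF3A was at -0.0196, ARNT at -0.0464, EGLN3 at 0.20 and CA9 at -0.17. ARNT was at -0.48, EGLN2 at 0.34, CA9 at -1.09 and BNIP3 at 0.33 with the cortical score. Without the 4 tumors ARNT was at -0.37, CA9 at -0.0838 and BNIP3 at 0.0829.

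In group 1 against NAMs, members higher were 0 by the Mann-Whitney U-test, 1 with the block, 0 with the cortical score and 1 without the 4 tumors, and members lower were 1 with the block, 0 with the cortical score and 0 with the endothelial score, where edgeR at an unadjusted p below 0.05 and DESeq2 each gave 2 higher and 2 lower. Genes called higher were 1962 by the Mann-Whitney U-test and 1921 with the block, and 16 were higher and 4 lower with the cortical score. That score did not overlap between group 1 and NAMs, so the fit with it cannot separate score and tissue here. EGLN1 changed sign to 0.00297 with library size, 0.16 with the cortical score and 0.14 without the 4 tumors. HIF3A was at -0.11 with the block and -0.14 with the endothelial score. EGLN2 was at 0.40, CA9 at -0.18, ADM at -0.18 and BNIP3 at 0.66 with the cortical score, and without the 4 tumors BNIP3 was at 0.19. EPAS1 without the 4 tumors was at 0.81 (FDR-adjusted p = 0.0566), over a range of 0.0113 to 0.978 in 10 settings.

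In group 2 against NAMs, members lower were 3 by the Mann-Whitney U-test, 0 with the cortical score, 0 with the endothelial score and 2 without the 4 tumors, and members higher were 0 with the cortical score, where edgeR at an unadjusted p below 0.05 and DESeq2 each gave 3 higher and 1 lower. Genes called with the cortical score were 763 higher and 496 lower. EGLN1 was at 0.0277 with the cortical score and BNIP3 at -0.10 with the endothelial score. Across the PPGLs with library size as scaling, r was 0.0046 for EGLN3 and CA9 and -0.0439 for the endothelial score and ADM.

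Leaving out 1 sample at a time, PPGLs against NAMs gave 2 to 3 members higher and 1 to 2 lower. HIF3A ranged from -0.19 to 0.0423 and BNIP3 from -0.0601 to 0.0871. EPAS1 ranged from 1.05 to 1.23, CA9 from 1.29 to 1.42, EGLN2 from -0.52 to -0.38, ADM from 1.09 to 1.30, HIF1A from -0.66 to -0.39 and ARNT from -0.46 to -0.32. Between the PPGL groups 256 to 733 genes were higher and 269 to 485 lower, with 256 and 269 without group 1 replicate 7 and 369 higher without group 2 replicate 4. ARNT ranged from -0.16 to 0.19, EGLN1 from -0.15 to 0.0859, EGLN3 from -0.82 to 0.0325, CA9 from -0.0418 to 0.26 and ADM from -0.64 to 0.0233. Group 1 against NAMs gave 1 to 3 members higher, with EPAS1 from 0.63 to 1.20, ADM from 0.62 to 1.29, HIF3A from -0.0894 to 0.35 and EGLN1 from -0.23 to 0.00184. Group 2 against NAMs gave 0 to 2 members lower, with HIF1A from -0.56 to -0.18, EGLN2 from -0.49 to -0.34, ADM from 1.15 to 1.38 and BNIP3 from -0.0164 to 0.16.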

Other observations

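Of 9 mitosis markers, 7 (77.8%) were higher in PPGL group 1 than in group 2 and 0 lower by edgeR, beside 3.97% and 2.95% of all genes. The counts were 9 and 0 at an unadjusted p below 0.05, 8 and 0 by DESeq2, and 0 in each direction by the Mann-Whitney U-test. Without the 4 tumors that stand apart, chosen after seeing the data, edgeR called 0 in each direction. The largest log2 FCs were those of BUB1 (2.38), TOP2A (2.22) and KIF11 (1.89), and without the 4 tumors they were 1.21, 0.69 and 0.98. TOP2A reached 668 CPM in group 1 replicate 7 against 84.0 CPM or less in the other tumors. The sum of the 9 markers was 18.1 to 79.3 CPM in NAMs, 28.1 to 1353 CPM in group 1 and 38.6 to 172 CPM in group 2, and the highest was that of group 1 replicate 7, the tumor with the lowest EPAS1 and ADM.

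Erythroid transcripts, which follow blood in a sample or local red cell formation, were close to 0 in NAMs and low in PPGLs: the 8 markers summed to 1.25 to 2.98 CPM in the medullas and 0.268 to 67.6 CPM in the tumors. In every NAM, 5 of the 8 held 3 counts or fewer, so that markers passed the filter mainly through the tumors, and no calls among them are given. EPO, the hormone gene under HIF-2 control, did not pass the filter and reached 0.026 CPM in NAMs and 0.113 CPM in PPGLs. Of 10 immediate early genes, 3 (30.0%) were higher (FOS log2 FC 3.57) and 1 (10.0%) lower (NR4A1 -1.87) by edgeR, beside 22.3% and 15.2% of all genes, and 1 higher and 1 lower by the Mann-Whitney U-test. Of 7 leukocyte markers tested, 2 (28.6%) were higher and 1 (14.3%) lower by edgeR, beside the same shares, and 1 and 2 by the Mann-Whitney U-test. Of 6 Schwann and sustentacular cell markers tested 0 were called by edgeR, with 2 lower at an unadjusted p below 0.05 and by DESeq2 and 4 lower by the Mann-Whitney U-test.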
